A study of Homo sapiens with 6 samples.

Results

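The human genome names a gene with the suffix -AS and a number when its transcript runs on the strand opposite a named neighbour. All rows whose symbol ended in -AS and digits were taken as antisense genes, which gave 400 of the 16792 genes in the deposited table. Each was set against its sense partner, the gene named before the suffix. A partner was listed for 366 of the 400, and these 366 pairs held 362 different partners, because 4 partners (MNX1, PAXIP1, PTOV1 and TSPEAR) had 2 antisense genes each. The rule used names only and no measured value.

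RNA was sequenced from EndoC-βH1, a human beta cell line (EndoCBH1 in the labels), in 6 libraries. The siMNX1 group (3 libraries, genotype "MNX1 knock down") had been transfected with siRNA against MNX1, and the siNT group (3 libraries, genotype WT) with a non-targeting siRNA. MNX1 is a homeodomain transcription factor of beta cells and motor neurons, and the title of the study sets it in the repression of PERCC1 and of somatostatin. All values come from 1 transformed line derived from fetal pancreas, both groups were transfected, and no time after transfection is given in the labels. Nothing in the labels says that the replicates came from separate cultures. The p-values then cover the spread between these libraries alone, and that spread may be technical.

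Antisense long noncoding RNAs are spliced or unspliced transcripts that are mostly kept in the nucleus at low levels. Some start beside the promoter of their partner and run away from it, others overlap its first exon, and others lie across its introns or its end. Single examples are known to silence, activate or mask their partner, and many others have no known function, with the nuclear exosome degrading much of the RNA that starts upstream of promoters. Where the exons of both partners overlap, only reads that carry strand can be assigned. The handling of strand is not given in the sources used here, so for overlapping stretches the reads of an antisense gene and of its partner cannot be told apart.

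Promoters are shown first for MNX1-AS1, for the called antisense genes NCAM1-AS1, MRPL23-AS1, ERICH6-AS1 and PRKAG2-AS1, and for RASAL2-AS1, a divergent gene with one of the largest changes against its partner. SGMS1-AS1, the other called gene, is named only. They are RefSeq windows on GRCh38.p14, from 250 bases before the start of the gene to 50 bases after it, written 5′ to 3′ on the strand of the gene. Capitals mark TAAT on either strand (TAAT or ATTA, with TAATTA holding both, overlapping), the core of many homeodomain sites, which is shown because the targeted protein is a homeodomain factor. The windows are MNX1-AS1 at chr7:157010607-157010906 (plus strand), NCAM1-AS1 at chr11:113273852-113274151 (minus), MRPL23-AS1 at chr11:1989871-1990170 (minus), ERICH6-AS1 at chr3:150703314-150703613 (plus), PRKAG2-AS1 at chr7:151876792-151877091 (plus) and RASAL2-AS1 at chr1:178093944-178094243 (minus).
MNX1-AS1: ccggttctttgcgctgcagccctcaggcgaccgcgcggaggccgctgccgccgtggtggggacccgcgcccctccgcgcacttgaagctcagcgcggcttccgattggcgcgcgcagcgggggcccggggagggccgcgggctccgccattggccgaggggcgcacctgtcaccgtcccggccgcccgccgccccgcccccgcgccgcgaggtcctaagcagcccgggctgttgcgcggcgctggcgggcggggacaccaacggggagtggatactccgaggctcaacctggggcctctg
NCAM1-AS1: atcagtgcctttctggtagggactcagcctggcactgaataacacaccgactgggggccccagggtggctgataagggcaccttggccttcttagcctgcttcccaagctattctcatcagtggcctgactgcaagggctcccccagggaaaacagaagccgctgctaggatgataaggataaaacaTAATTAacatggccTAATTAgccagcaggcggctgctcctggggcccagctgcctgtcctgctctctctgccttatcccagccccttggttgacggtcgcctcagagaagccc
MRPL23-AS1: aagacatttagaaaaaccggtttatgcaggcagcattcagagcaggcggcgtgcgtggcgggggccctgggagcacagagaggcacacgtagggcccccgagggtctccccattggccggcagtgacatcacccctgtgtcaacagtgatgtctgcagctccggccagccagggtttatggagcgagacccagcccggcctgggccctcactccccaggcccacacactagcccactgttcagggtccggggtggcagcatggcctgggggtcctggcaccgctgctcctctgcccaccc
ERICH6-AS1: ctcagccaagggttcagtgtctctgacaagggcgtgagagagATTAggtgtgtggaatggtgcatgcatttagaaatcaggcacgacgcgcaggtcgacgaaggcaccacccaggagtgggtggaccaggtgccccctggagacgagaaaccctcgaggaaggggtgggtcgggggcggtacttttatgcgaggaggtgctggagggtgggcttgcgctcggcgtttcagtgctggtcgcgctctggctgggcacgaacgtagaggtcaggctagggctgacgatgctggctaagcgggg
PRKAG2-AS1: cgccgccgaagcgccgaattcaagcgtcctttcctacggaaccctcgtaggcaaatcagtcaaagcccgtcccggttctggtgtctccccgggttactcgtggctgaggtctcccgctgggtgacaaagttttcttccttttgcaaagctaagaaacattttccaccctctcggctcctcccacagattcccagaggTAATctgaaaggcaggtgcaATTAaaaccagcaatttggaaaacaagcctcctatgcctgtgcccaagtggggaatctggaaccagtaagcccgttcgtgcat
RASAL2-AS1: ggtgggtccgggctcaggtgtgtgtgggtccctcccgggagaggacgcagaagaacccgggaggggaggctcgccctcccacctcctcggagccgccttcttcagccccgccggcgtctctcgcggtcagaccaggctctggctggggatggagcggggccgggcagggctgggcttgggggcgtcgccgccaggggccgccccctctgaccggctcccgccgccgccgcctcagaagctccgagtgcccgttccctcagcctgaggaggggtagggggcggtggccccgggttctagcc

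The 6 windows differed in composition. MNX1-AS1 had no TAAT match, 77.7% G and C and 44 CG dinucleotides, and 293 of its 300 bases were also in the window of MNX1, read on the other strand. NCAM1-AS1 had 4 matches, from 2 copies of TAATTA, and only 5 CG dinucleotides. PRKAG2-AS1 had 2 matches and ERICH6-AS1 1, while MRPL23-AS1 and RASAL2-AS1 had none. Windows were found for 277 of the 400 antisense genes. TAAT or ATTA occurred in 101 of them, or 36.5%, and in 50.2% of all 35116 windows, while TAATTA occurred in 2.89% of the antisense windows and 4.84% of all windows. The antisense windows were richer in G and C, with a median of 63.3%, against 58.7% over all windows, and held a median of 22 CG dinucleotides, against 14. A match of these letters is a description and not a binding site.

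The pairs fell into 5 main arrangements on GRCh38 with the GENCODE 29 annotation, and in all 366 the partners lay on opposite strands. The most frequent was head to head, with overlapping 5′ ends, in 154 pairs and with a median of 701 bases between the starts. In 44 divergent pairs the genes did not overlap and started a median of 109 bases apart. A further 71 antisense genes lay within their partner, 71 met it tail to tail, 25 contained their partner, and 1 pair, that of IGFL2-AS1, was convergent without overlap. Exons of both partners overlapped in 268 pairs, by a median of 300.5 bases, and did not overlap in 98. By GENCODE type 302 of the 400 were antisense, 47 processed transcripts, 40 lincRNAs and 11 other types, of which 2, CCDC28A-AS1 and DOCK8-AS1, were protein coding.

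Most antisense genes were present at low levels. The mean normalized count over the 6 libraries had a median of 58.9 over the 400 antisense genes (interquartile range 25.2 to 166), and 179 had a mean under 50. Only 4 reached a mean of 1000. These were FGD5-AS1, OIP5-AS1, PSMA3-AS1 and PAX8-AS1. All antisense genes together held 0.310% of the table's total, and the 5 most abundant held 16.7% of that share. No gene of the deposited table had a mean under 6.57, so antisense genes below that level are not seen here and zeros are rare in advance. Just 2 of 2400 values were 0, both in siMNX1 replicate 2. DPP9-AS1 was at 16.8, 0 and 6.66 in siMNX1 cells and 14.2, 14.0 and 15.2 in siNT cells, and KIAA1614-AS1 at 12.0, 0 and 7.62 in siMNX1 cells and 32.7, 4.68 and 15.2 in siNT cells. The standard error of the log2 fold change had a median of 0.22 over antisense genes and 0.09 over sense partners.

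Per kilobase of exon, the antisense gene was usually the lower partner. The ratio of antisense to sense level, each per kilobase of exon, had a median of 0.212 (interquartile range 0.061 to 0.698), and antisense exceeded sense in 68 of 366 pairs. By arrangement the median ratio was 0.134 in head to head pairs, 0.236 in divergent pairs, 0.268 where the antisense gene lay within its partner, 0.313 in tail to tail pairs and 0.65 where it contained its partner. The highest ratio was 17.5 for PIK3CD-AS2, whose partner had values between 2.02 and 23.5. ADGRD1-AS1, inside the adhesion G protein-coupled receptor gene ADGRD1, followed with a ratio of 15.3 and reached 534 per kilobase, where FGD5-AS1 reached 969 per kilobase.

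**Figure D1:**
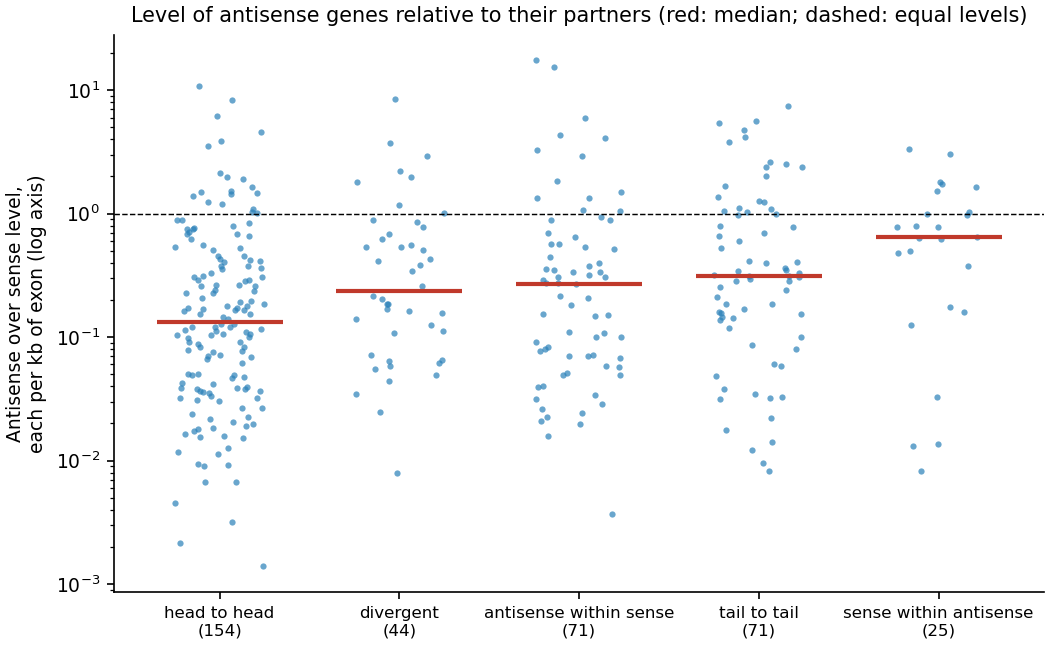
Ratio of antisense to sense level, each as normalized count per kilobase of exon (log axis), for the pairs of each arrangement. Points are pairs, red lines are medians and the dashed line marks equal levels. Medians lie between 0.134 in head to head pairs and 0.65 where the antisense gene contains its partner.

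MNX1, the targeted gene, was listed at 1885, 1708 and 1751 in siMNX1 cells and 2039, 2033 and 1988 in siNT cells. All siMNX1 values were below all siNT values, but with a log2 fold change of -0.18 the gene missed the threshold, an adjusted p of 0.05 (limma, adjusted p = 0.116). The genes of the study's title separated the groups clearly. PERCC1 averaged 842 ± 59.1 in siMNX1 cells and 44.3 ± 9.25 in siNT cells (SD, n = 3 each), and SST, which encodes somatostatin, averaged 858 ± 24.5 in siMNX1 cells and 220 ± 16.6 in siNT cells. Library totals of the deposited values lay between 18406479 and 18704645, and the first principal component, with 39.2% of the variance, separated the groups. On the second, with 18.9%, siMNX1 replicate 2 lay at -17.9 and the other libraries between -6.78 and 9.59, and values without it are given for the antisense genes that passed the threshold. Beta cell markers were listed in full (18 of 18, with INS at 125386 ± 5655 in siMNX1 cells and 110539 ± 3758 in siNT cells), while 2 of 8 acinar, 2 of 7 ductal and 3 of 11 mesenchymal, endothelial and immune markers were listed. By limma CHGA, UCN3, MAFA and PCSK1 of the beta cell list were higher and G6PC2 and IAPP lower, and of 6 listed markers of other islet cells SST and HHEX were higher and GC lower (the call of GC was lost without siNT replicate 2, adjusted p = 0.0513). The part of these changes in the antisense values was not tested.

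MNX1-AS1 is divergent from MNX1 on chromosome 7 (157010805 to 157016426, plus strand), with 154 bases between the starts and no overlap. It was at 225, 213 and 216 in siMNX1 cells and 187, 185 and 179 in siNT cells. Every siMNX1 library was above every siNT library, with a log2 fold change of 0.25, but the adjusted p of 0.222 (limma) missed the threshold. The log2 ratio of MNX1-AS1 to MNX1 was -3.06, -3.0 and -3.01 in siMNX1 cells and -3.44, -3.45 and -3.46 in siNT cells. The ratio thus differed by 0.43, with an exact two-sided permutation p of 0.1, the smallest that 3 against 3 libraries allow. MNX1-AS2, the other antisense gene of MNX1, lies inside it (157006307 to 157007132, plus strand) and shares no exon bases with it. MNX1-AS2 was at 26.6, 28.7 and 26.0 in siMNX1 cells and 22.1, 22.5 and 25.4 in siNT cells. It too was higher in every siMNX1 library, by a small margin (log2 fold change 0.21, limma adjusted p = 0.692), and its log2 ratio to MNX1 differed by 0.39 (exact permutation p = 0.1). Both ratios share the same MNX1 values.

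Few antisense genes changed past the threshold. Of the 400, 3 were higher in siMNX1 cells (0.75%) and 2 were lower (0.5%) at an adjusted p under 0.05 with limma, against 1.99% higher and 1.33% lower, or 3.32% in either direction, of all 16792 genes. At an unadjusted p under 0.05, 37 antisense genes were higher (9.25%, against 9.81% of all genes) and 16 lower (4%, against 8.56%). Called shares can be set beside those of all genes of like level. With a mean under 50, 0 of 179 antisense genes were called by limma (10 higher and 7 lower had an unadjusted p under 0.05), against 0.975% of all genes at that level. With a mean of 50 to 200, 2 of 134 were called, against 2.57%, and with a mean of 200 to 1000, 3 of 83, against 3.76%. None of the 4 above 1000 was called, against 5.01% of all genes, and 1 of these 4 had an unadjusted p under 0.05.

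**Figure D2:**
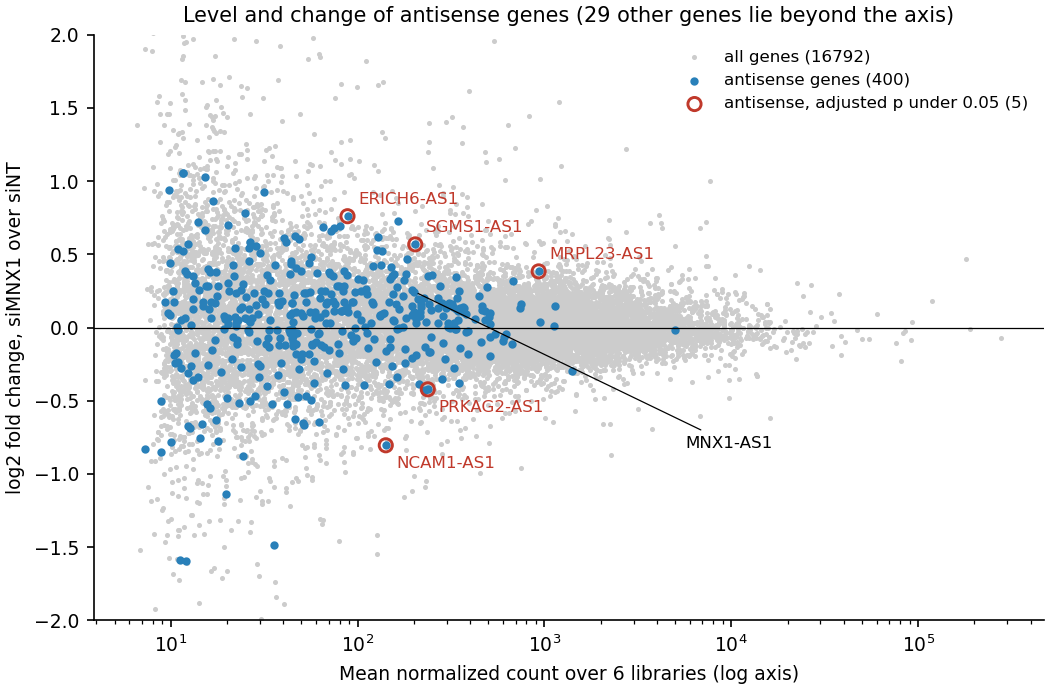
Mean normalized count over 6 libraries (log axis) against log2 fold change, siMNX1 over siNT, for all genes (grey) and the 400 antisense genes (blue). Red circles mark the 5 antisense genes past the threshold, which have means between 88.2 and 930.5.

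NCAM1-AS1 fell while NCAM1, the neural cell adhesion molecule found on islet cells, rose. NCAM1-AS1 (chromosome 11, 113269532 to 113273901, minus strand) lies inside NCAM1 (112961247 to 113278436, plus strand) and shares 552 exon bases with it. NCAM1-AS1 was at 104, 98.7 and 104 in siMNX1 cells and 200, 152 and 189 in siNT cells, so the groups did not overlap. Its log2 fold change was -0.80 (SE 0.14, limma adjusted p = 0.0161). NCAM1 was at 2005, 2049 and 1753 in siMNX1 cells and 1415, 1358 and 1493 in siNT cells, a log2 fold change of 0.44 (limma, adjusted p = 0.0114). It was the only pair of the 366 in which both partners passed the threshold. The log2 ratio of antisense to sense was -4.26, -4.36 and -4.06 in siMNX1 cells and -2.82, -3.15 and -2.97 in siNT cells, and the difference of -1.25 had an exact permutation p of 0.1. The call of NCAM1-AS1 was lost when siMNX1 replicate 1 was left out (limma, adjusted p = 0.0514), and likewise for siNT replicate 1 (0.0631) and siNT replicate 3 (0.0884), and that of NCAM1 without siMNX1 replicate 1 (0.0536) or siNT replicate 2 (0.0577). Without siMNX1 replicate 2 the adjusted p of NCAM1-AS1 was 0.0382 with limma.

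MRPL23-AS1 rose and was the most abundant of the 5. It lies on chromosome 11 (1983237 to 1989920, minus strand), tail to tail with MRPL23, a protein of the large subunit of the mitochondrial ribosome, with 85 shared exon bases, and 5256 bases from H19, the imprinted noncoding RNA on the same strand. MRPL23-AS1 was at 991, 1074 and 1095 in siMNX1 cells and 864, 788 and 771 in siNT cells. Every siMNX1 library was higher, with a log2 fold change of 0.38 (SE 0.07, limma adjusted p = 0.0216). Neither neighbour passed the threshold. MRPL23 was at 1034, 1242 and 1103 in siMNX1 cells and 1335, 1269 and 1056 in siNT cells, with overlap between the groups (-0.11 on the log2 scale, limma adjusted p = 0.595), and H19 averaged 4008 in siMNX1 cells and 4354 in siNT cells (limma, adjusted p = 0.623). The call of MRPL23-AS1 was kept without siMNX1 replicate 2 (limma, adjusted p = 0.0489) and lost without siMNX1 replicate 3 (0.0697), siNT replicate 2 (0.0889) or siNT replicate 3 (0.108).

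ERICH6-AS1 rose on chromosome 3 (150703564 to 150720146, plus strand). Its values were 112, 111 and 110 in siMNX1 cells and 64.0, 60.3 and 71.7 in siNT cells, well apart, with a log2 fold change of 0.76 (SE 0.15, limma adjusted p = 0.0245). ERICH6 itself was not analysed here. The nearest listed gene was SIAH2, a ubiquitin ligase, 20981 bases away, at a mean of 709 in siMNX1 cells and 777 in siNT cells (limma, adjusted p = 0.345). The change of ERICH6-AS1 missed the threshold when any 1 of the 6 libraries was left out, with limma adjusted p between 0.0592 without siMNX1 replicate 2 and 0.0927 without siNT replicate 2.

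SGMS1-AS1 rose beside an SGMS1 gene, which encodes a sphingomyelin synthase, that did not pass the threshold. The pair is head to head on chromosome 10 (SGMS1-AS1 at 50624951 to 50641451, plus strand) with 207 shared exon bases. SGMS1-AS1 was at 215, 250 and 265 in siMNX1 cells and 153, 179 and 159 in siNT cells. The groups did not overlap, and the log2 fold change was 0.57 (SE 0.12, limma adjusted p = 0.0385). SGMS1 was at 444, 426 and 484 in siMNX1 cells and 515, 439 and 474 in siNT cells, overlapping ranges with a log2 fold change of -0.08 (limma, adjusted p = 0.702). The log2 ratio of the partners differed by 0.64 between the groups (exact permutation p = 0.1). The call was kept only without siMNX1 replicate 1 (limma, adjusted p = 0.0494). With any other library left out the adjusted p was at least 0.0716 (siNT replicate 2 left out) and at most 0.141 (siNT replicate 3), with 0.0827 for siMNX1 replicate 2.

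PRKAG2-AS1 fell. It starts head to head with PRKAG2, which encodes a regulatory subunit of the energy sensor AMPK, on chromosome 7 (151877042 to 151879223, plus strand), and the partners share 84 exon bases. PRKAG2-AS1 was at 195, 202 and 212 in siMNX1 cells and 273, 269 and 273 in siNT cells. The siNT values lay close together and above all siMNX1 values, with a log2 fold change of -0.42 (SE 0.09, limma adjusted p = 0.0441). PRKAG2 was at 809, 906 and 919 in siMNX1 cells and 995, 1005 and 965 in siNT cells, also without overlap, but the gene missed the threshold (-0.17 on the log2 scale, limma adjusted p = 0.219). The ratio of the partners differed by -0.25 (exact permutation p = 0.1). No call remained when any 1 library was left out, with limma adjusted p between 0.076 without siMNX1 replicate 3 and 0.154 without siNT replicate 3.

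**Figure D3:**
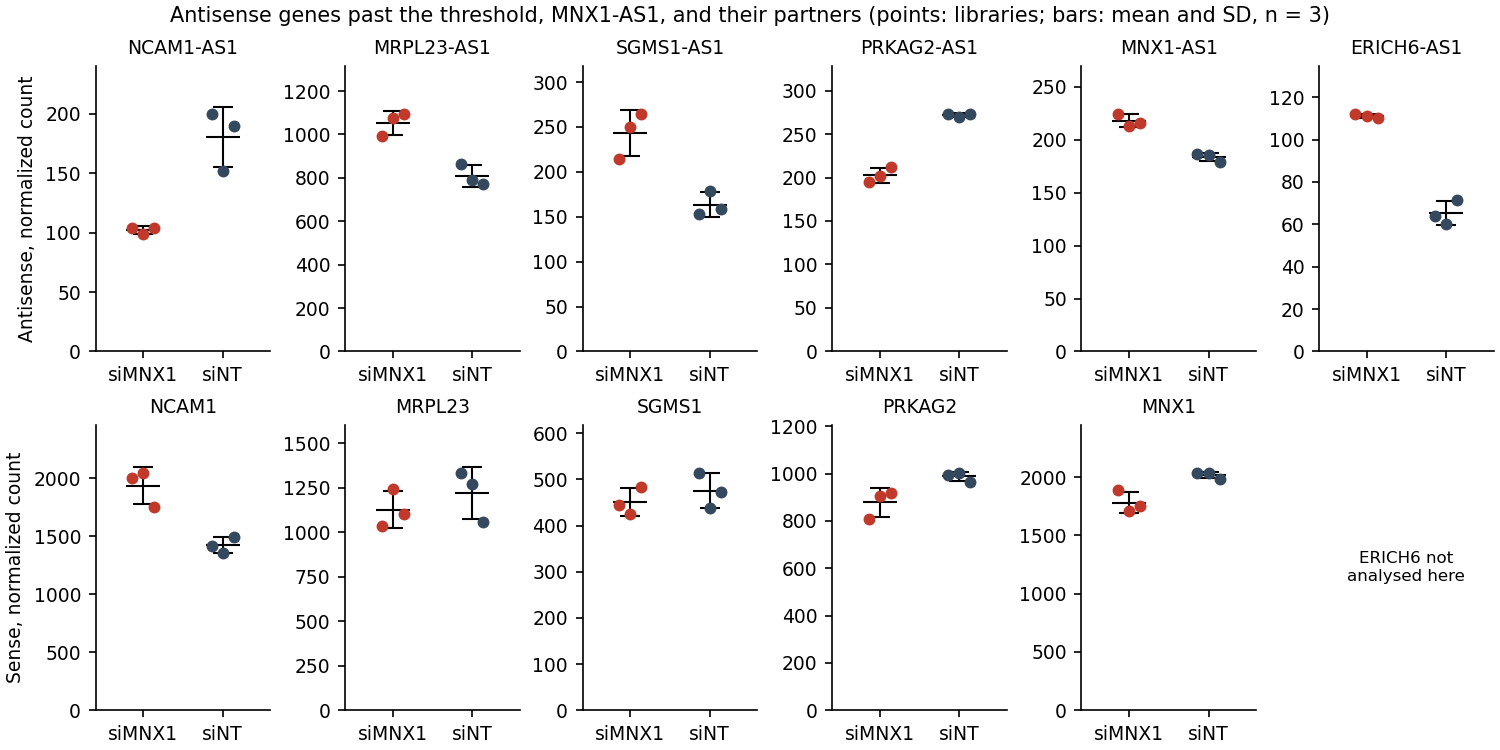
Normalized counts of the 5 antisense genes past the threshold and MNX1-AS1 (upper row) and their sense partners (lower row) in siMNX1 and siNT libraries. Points are libraries and bars are mean and SD (n = 3 each). In the upper row no siMNX1 library overlaps a siNT library, and in the lower row only NCAM1 passed the threshold.

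Sense partners were more abundant than most genes, with a median mean count of 834, against 401 over all genes. The share of all genes called by limma in either direction rose with level, to 3.76% at a mean of 200 to 1000 and 5.01% above 1000. Of 362 partners, 16 were higher (4.42%) and 3 lower (0.829%) in siMNX1 cells by limma, against 1.99% and 1.33% of all genes at any level. The smallest adjusted p was that of FGF14, an intracellular growth factor homolog that binds voltage-gated sodium channels, at 1221, 1378 and 1192 in siMNX1 cells and 569, 620 and 684 in siNT cells (log2 fold change 1.02, limma adjusted p = 0.000332). FGF14-AS2, within FGF14 and with no shared exon, was at 292, 263 and 252 in siMNX1 cells and 217, 203 and 209 in siNT cells. Its groups also did not overlap, but the gene missed the threshold (0.35 on the log2 scale, limma adjusted p = 0.0978), and the log2 ratio to FGF14 differed by -0.66.

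Among the 19 pairs with a called partner, the antisense gene had the sign of its partner in 14 (212 of all 366). The 14 include C4A-AS1 and C4B-AS1, which had identical values in every library and so are not separate cases. Of the 19 antisense genes 1 passed the threshold, NCAM1-AS1, whose sign was opposite to that of NCAM1. LRP4, a receptor of agrin, fell (log2 fold change -0.60, limma adjusted p = 0.00135), and LRP4-AS1, tail to tail with it, was at 35.7, 32.2 and 34.0 in siMNX1 cells and 43.3, 52.4 and 52.9 in siNT cells. These groups did not overlap, with a log2 fold change of -0.53 (limma, adjusted p = 0.198). KCNJ2, an inward rectifier potassium channel, rose (0.56, limma adjusted p = 0.0148), and KCNJ2-AS1, head to head with it, was at 54.0, 51.7 and 63.7 in siMNX1 cells and 41.5, 31.8 and 35.5 in siNT cells. Its log2 fold change was 0.63, without overlap between the groups (limma, adjusted p = 0.138). The call of KCNJ2 was lost without siMNX1 replicate 1 (limma, adjusted p = 0.0514) or siNT replicate 3 (0.0731).

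Other called partners had antisense genes that did not follow them past the threshold. TMCO1, a calcium channel of the endoplasmic reticulum, rose (log2 fold change 0.61, limma adjusted p = 0.000343), and TMCO1-AS1 within it was at 19.2, 35.5 and 24.7 in siMNX1 cells and 19.7, 14.0 and 18.6 in siNT cells, overlapping groups at low values. FAM13A rose (0.57, limma adjusted p = 0.00135), and FAM13A-AS1 was at 32.1, 18.6 and 29.5 in siMNX1 cells and 13.4, 28.6 and 34.4 in siNT cells. CACNA2D1, an auxiliary calcium channel subunit, rose (0.36, limma adjusted p = 0.00243) with CACNA2D1-AS1 at no more than 14.3 in any library. These antisense genes scattered across both groups. ASIC4, of the acid-sensing ion channel family, fell (-0.74, limma adjusted p = 0.0108; without siNT replicate 3, 0.0642), and ASIC4-AS1, head to head with it, was at 15.7, 15.3 and 21.1 in siMNX1 cells and 15.0, 11.2 and 16.1 in siNT cells. C4A-AS1 and C4B-AS1 had identical values in every library, at 15.6, 10.1 and 22.8 in siMNX1 cells and 7.65, 5.61 and 7.61 in siNT cells (log2 fold change 1.05, limma adjusted p = 0.199). They are antisense to the near-identical complement genes C4A and C4B, both of which rose (1.10 and 0.83, limma adjusted p = 0.000811 and 0.000336), and the reads of the copies cannot be told apart. The calls of FGF14, C4A, C4B, TMCO1, FAM13A, LRP4 and CACNA2D1 held with any 1 of the 6 libraries left out.

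The other 8 called partners were BRWD1, DPP10, LIFR, RFX3, SATB1, TMSB15B and VASH1, all higher in siMNX1 cells, and ZNF503, which was lower. RFX3, a transcription factor of cilia and islet cells, was at 1007, 1159 and 935.5 in siMNX1 cells and 768, 650 and 751 in siNT cells (log2 fold change 0.51, limma adjusted p = 0.0216). RFX3-AS1, divergent from it, was at 16.5, 29.2 and 31.7 in siMNX1 cells and 16.6, 29.7 and 26.6 in siNT cells, so its groups overlapped fully. DPP10, an auxiliary subunit of potassium channels, was at 865, 967 and 907 in siMNX1 cells and 748, 687 and 709 in siNT cells (0.35, limma adjusted p = 0.0283). DPP10-AS1 within it was at 173, 182 and 146 in siMNX1 cells and 136, 129.5 and 132 in siNT cells, higher in every siMNX1 library but short of the threshold (0.33, limma adjusted p = 0.203). ZNF503, a zinc finger protein, was at 343, 403 and 356.5 in siMNX1 cells and 533, 503 and 510.0 in siNT cells (-0.49, limma adjusted p = 0.0181). ZNF503-AS2, head to head with it, was at 134, 120.2 and 126 in siMNX1 cells and 179, 156 and 162.5 in siNT cells, again apart and short of the threshold (-0.38, limma adjusted p = 0.128). Each of these 8 partner calls was lost in at least 3 of the 6 cases with 1 library left out, with the highest limma adjusted p at 0.0816 for ZNF503, 0.0826 for RFX3 and 0.117 for DPP10, and 0.161 for TMSB15B.

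Across all 366 pairs the log2 fold changes of the partners were weakly related (Pearson r 0.24, Spearman coefficient 0.19), and 57.9% had the same sign. This is a description across pairs that share the same 6 libraries and, where the genes overlap, may share reads. Pairs without shared exon bases are not free of this limit, since some of these antisense genes lie within their partner, as FGF14-AS2 does. Where exons overlapped r was 0.30 over 268 pairs, and where they did not it was 0.05 over 98 pairs. Without the identical C4A-AS1 and C4B-AS1 these values were 0.19 over 364 pairs and 0.24 over 266 overlapping pairs. For 15469 other genes and their nearest listed neighbour on the opposite strand r was 0.10, with the same sign in 53.3%.

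**Figure D4:**
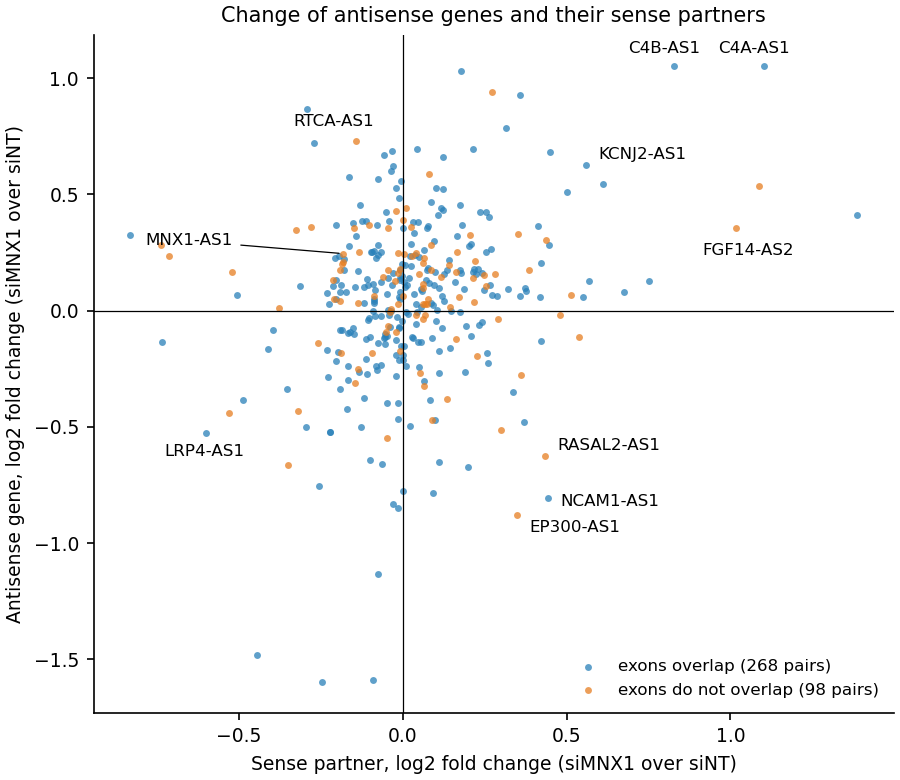
Log2 fold change (siMNX1 over siNT) of the sense partner (x axis) and the antisense gene (y axis) in 366 pairs, by whether their exons overlap. Points are pairs. NCAM1-AS1, RASAL2-AS1 and EP300-AS1 lie at the lower right, below 0 with a partner above 0, and C4A-AS1 and C4B-AS1 share 1 y value.

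The ratio of antisense to sense was without overlap between the groups in 80 of 366 pairs, 52 higher (14.2%) and 28 lower (7.65%) in siMNX1 cells. For genes and their nearest listed neighbours on the opposite strand these shares were 10.7% higher and 10.9% lower, or 21.6% in either direction. There, 2 genes nearest to each other were entered in both orders, which draws the 2 shares together by construction. Only the share in either direction can thus be set beside the pairs, and their direction has no background here. Each such ratio had an exact permutation p of 0.1, so none can pass 0.05. The largest lower ratios after NCAM1-AS1, with both partners at a mean of at least 20, were those of EP300-AS1 (-1.23) and RASAL2-AS1 (-1.06). EP300-AS1 was at 20.5, 16.4 and 13.4 in siMNX1 cells and 23.4, 36.5 and 35.6 in siNT cells, beside EP300, a histone acetyltransferase, at 1757, 2590 and 1821 in siMNX1 cells and 1658, 1401 and 1732 in siNT cells. RASAL2-AS1 starts 157 bases from RASAL2, a Ras GTPase activating protein, in the divergent arrangement. It was at 39.0, 39.5 and 30.0 in siMNX1 cells and 44.0, 64.6 and 61.7 in siNT cells (log2 fold change -0.63, limma adjusted p = 0.178). RASAL2 rose (0.43, limma adjusted p = 0.0452), a call that was kept only without siMNX1 replicate 3 and had adjusted p up to 0.166 otherwise.

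With the same limit on the means, the largest higher ratio was that of CLSTN2-AS1 (0.95), where the antisense groups overlapped and CLSTN2, a calsyntenin, was at 52.7, 40.3 and 49.8 in siMNX1 cells and 117, 73.4 and 55.8 in siNT cells. RTCA-AS1, which starts 28 bases from RTCA, an RNA phosphate cyclase, in the divergent arrangement, followed with 0.87. RTCA-AS1 was at 224, 238 and 156 in siMNX1 cells and 90.4, 141 and 142 in siNT cells, apart but with a wide spread (log2 fold change 0.73, limma adjusted p = 0.103). NAPA-AS1 beside the gene of a SNARE disassembly protein (0.72), DLX6-AS1 (0.67) and PRKAR2A-AS1 beside a protein kinase A subunit gene (0.65) came next. DLX6-AS1, known from its mouse counterpart as a regulator of the DLX homeobox genes it overlaps, was at 447, 307.5 and 379 in siMNX1 cells and 271.5, 308 and 301 in siNT cells, so that 1 siMNX1 library fell among the siNT libraries. ARRDC3-AS1 (-0.85) and CRYM-AS1 (-0.81) completed the lower side.

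Among antisense genes with a mean of at least 50 and groups that did not overlap, the largest differences that missed the threshold were RTCA-AS1 (0.73 on the log2 scale, limma adjusted p = 0.103), TMEM51-AS1 (0.69, adjusted p = 0.111), NAPA-AS1 (0.69, adjusted p = 0.177) and RNF157-AS1 (0.68, adjusted p = 0.154) on the higher side. On the lower side they were PRKCQ-AS1 (-0.67, limma adjusted p = 0.12), VAC14-AS1 (-0.47, adjusted p = 0.273) and FOXD2-AS1 (-0.43, adjusted p = 0.0857). In all, 55 antisense genes (13.8%) lay wholly higher in siMNX1 cells and 21 (5.25%) wholly lower, against 12.0% and 12.1% of all genes.

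None of the 5 most abundant antisense genes passed the threshold. FGD5-AS1 was at 4997, 5289 and 4542 in siMNX1 cells and 4894, 5217 and 4887 in siNT cells (log2 fold change -0.02, limma adjusted p = 0.907). OIP5-AS1, a conserved transcript also called cyrano, was at 1258, 1236 and 1278 in siMNX1 cells and 1712, 1579 and 1369 in siNT cells. All siMNX1 values were lower, by a log2 fold change of -0.30 that missed the threshold (limma, adjusted p = 0.0799) and passed it without siNT replicate 3 (adjusted p = 0.0403). PSMA3-AS1 averaged 1202 ± 120.5 in siMNX1 cells and 1084 ± 37.6 in siNT cells, PAX8-AS1 1126 ± 122 in siMNX1 cells and 1111 ± 37.0 in siNT cells, and OTUD6B-AS1 960 ± 66.2 in siMNX1 cells and 936 ± 71.4 in siNT cells (SD, n = 3 each). None of these last 3 separated the groups.

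Although few were called, the antisense genes as a class lay slightly higher in siMNX1 cells. The log2 fold change was above 0 in 251 of 400 (62.8%), against 49.9% of all genes, and its median was 0.09 (interquartile range -0.11 to 0.24, full range -1.60 to 1.05), against a median near 0 over all genes. By level, the median was 0.06 for antisense genes with a mean under 50 (0.04 over all genes at that level), 0.11 at 50 to 200 (0.03 over all genes) and 0.08 at 200 to 1000 (near 0 over all genes). Summed over the 400, the antisense values were 58500.5, 57809 and 59364 in siMNX1 cells and 55874, 56917 and 56289 in siNT cells, 3.90% higher with no overlap. After centring each gene on its mean over the libraries, the class median was 0.04, 0.03 and 0.08 in siMNX1 libraries and -0.04, -0.02 and -0.02 in siNT libraries on the log2 scale. The median log2 fold change was 0.14 for antisense genes within their partner, 0.08 for head to head, 0.08 for tail to tail, 0.07 for those that contain their partner and 0.06 for divergent genes. It was 0.12 where exons did not overlap and 0.08 where they did. In the antisense class siMNX1 replicate 3 had the highest median. Mitochondrial genes held 5.43%, 5.58% and 6.49% of the total in siMNX1 libraries and 5.39%, 6.81% and 6.11% in siNT libraries, overlapping ranges.

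Of the sense partners 51.1% had a log2 fold change above 0, with a median near 0. Among other noncoding classes, the intergenic, divergent and remaining antisense genes also lay above 0, and small RNA host and intronic genes below. The median log2 fold change was 0.06 over 227 LINC intergenic genes (limma called 8, or 3.52%, higher and 2, or 0.881%, lower), 0.05 over 727 other genes of GENCODE type antisense (6, or 0.825%, higher and 3, or 0.413%, lower) and 0.06 over 72 -DT divergent transcripts, of which limma called 0 (11 higher and 1 lower at an unadjusted p under 0.05). It was -0.05 over 46 small RNA host genes, with 41.3% above 0, and -0.10 over 7 intronic -IT genes. Over 13398 protein coding genes it was -0.01. The log2 fold change was above 0 in 61.2% of LINC, 61.1% of -DT and 57.9% of the other GENCODE antisense genes. Among 701 genes of GENCODE type lincRNA outside the antisense class, which may include LINC genes, the share was 60.9% (median 0.08). The siMNX1 sum differed from the siNT sum by 7.19% for LINC, 8.81% for -DT, 4.32% for other antisense and -5.87% for lincRNA genes. In the -DT genes the class median was 0.03, -0.03 and 0.17 in siMNX1 libraries and -0.07, -0.02 and -0.02 in siNT libraries, so the groups overlapped. They also overlapped in the other GENCODE antisense genes. For LINC genes the class median was 0.04, 0.03 and 0.09 in siMNX1 libraries and -0.03, -0.02 and -0.04 in siNT libraries, without overlap, as in the antisense class. Whether the antisense class differs from these other classes was not tested.

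**Figure D5:**
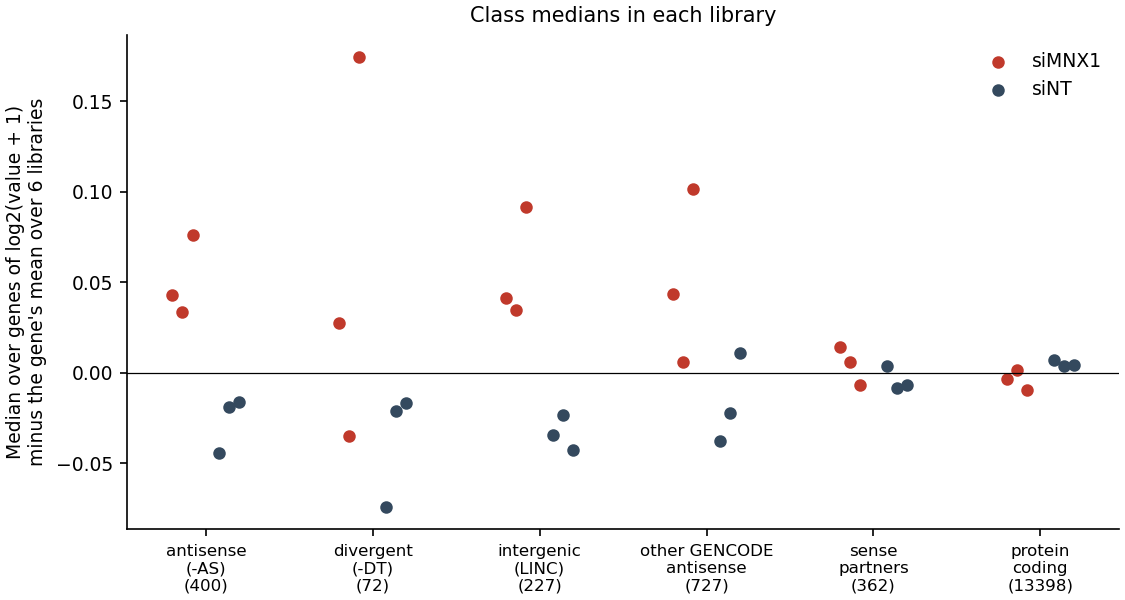
Median over the genes of a class of log2(value + 1) minus the mean of each gene over 6 libraries, for siMNX1 and siNT libraries (points, 3 each). Antisense genes lie between 0.03 and 0.08 in siMNX1 libraries and between -0.04 and -0.02 in siNT libraries. LINC genes lie between 0.03 and 0.09 in siMNX1 libraries and between -0.04 and -0.02 in siNT libraries, and protein coding genes stay near 0 in both.

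Genes that process or degrade such transcripts were read from 4 lists. None was called in any of them by limma. Of 24 genes of the nuclear exosome and its adaptors, 5 (20.8%) were lower and 0 higher at an unadjusted p under 0.05 (limma). The shares of all genes were 8.56% and 9.81%. Without overlap between the groups 9 (37.5%) were lower and 0 higher, against 12.1% and 12.0% of all genes. In this list 7 had a log2 fold change above 0, and the median was -0.07. MPHOSPH6, an exosome cofactor, was at 674, 719 and 755 in siMNX1 cells and 865, 828 and 821 in siNT cells, and EXOSC3, a subunit of the exosome cap, at 576, 495 and 568 in siMNX1 cells and 773, 624 and 643 in siNT cells. Both had groups without overlap, and neither passed (limma, adjusted p = 0.114 and 0.136). The other lists held 21 genes of transcript cleavage and termination, 14 of the Integrator complex and 12 of double-stranded RNA binding and editing. In these, 3 (14.3%), 1 (7.14%) and 1 (8.33%) were lower and 0 higher at that unadjusted level, with medians between -0.01 and 0.001. Without overlap 6 (28.6%), 2 (14.3%) and 1 (8.33%) were lower, and 1 Integrator gene was higher. The part of these genes in the level of antisense transcripts was not tested. Antisense genes of 4 listed genes were themselves members of the class, and none of DICER1-AS1 (0.28), EXOSC10-AS1 (0.17), INTS6-AS1 (0.37) and SIX3-AS1 (-0.18) passed the threshold on the log2 scale with limma (adjusted p between 0.442 and 0.837).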

How the data were processed

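RNA-seq libraries of siMNX1 and siNT cells (3 each, grouped by title) started from 5 ng total RNA and were depleted of ribosomal RNA, per the labels' protocols. The deposited table gives a signal for each gene, namely normalized counts with decimals that the authors did not scale to length. The submitters' processing notes name DESeq2 (version 1.26.0), DESeq, R (3.6.3), RSEM (1.3.1), STAR (2.7.6a) and the build GRCh38 without their roles. Annotation release, row filter and strand handling: not given in the sources used here. Whole reads could not be recovered from the values, since 25.8% to 47.4% of values under 10 lay within 0.02 of a whole multiple of a step, so no count model was fitted, the depth is unknown, and deposited totals are not depths.

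Values were tested as log2(value + 1) with limma 3.58.1 (R 4.3.3, variance trend) over all 16792 genes with Benjamini-Hochberg adjustment and a threshold of 0.05. Fold changes are on that scale, which understates changes of low genes. The log2 ratio of antisense to sense was compared by an exact two-sided permutation test over libraries. Positions, exons and types came from GENCODE 29 matched by gene ID (16593 genes), and promoter windows from RefSeq. The computation was tested on simulated data. The members and the lists were chosen with earlier results of these data known. Named were MNX1-AS1, all called antisense genes, the 5 largest non-overlapping changes in each direction at a mean of at least 50, the 5 most abundant, the 5 largest ratio changes in each direction (both means at least 20), up to 10 pairs with the most clearly called partners, and partners of these. The other called partners and their antisense genes, MNX1-AS2, DPP9-AS1, KIAA1614-AS1, PIK3CD-AS2 and ADGRD1-AS1 were named after their values were seen. Alternatives were the pseudocount, a minimum mean of 50, TMM or equal-total scaling, a robust variance model, a threshold of 0.1, the replicate number as a block, and leaving out each library.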

Additional observations from a re-analysis of the deposited data

How the results depend on the processing

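Under pseudocounts of 0.5 and 5, TMM or equal-total scaling and the robust model, the same 5 antisense genes were called, and a minimum mean of 50 added ADGRD1-AS1. At a threshold of 0.1, 8 were higher and 5 lower. This looser limit can only add calls, among antisense genes as over all genes, and the share of all genes at it is not given here. Libraries of the same replicate number showed no positive correlation of deviations (-0.08, -0.08 and -0.07 for numbers 1, 2 and 3). The siNT library of highest correlation was replicate 3, 1 and 2 for siMNX1 replicates 1, 2 and 3, and pairing in another order was not tested. The replicate block left 162 genes higher and 75 lower over the table, 0 antisense genes higher, 1 lower (NCAM1-AS1, limma adjusted p = 0.0407) and 7 partners higher and 2 lower. Leaving out 1 library gave 133 to 257 genes higher, 64 to 179 lower, 0 to 2 antisense genes higher, 0 to 1 lower, 6 to 13 partners higher and 1 to 5 lower. It gave a class median of 0.0582 to 0.0907 and 105 to 121 pairs with a separated ratio, a count that fewer libraries raise by construction. Lower partners numbered 6 at a minimum mean of 50 and 5 with the robust model, and separated ratios 51 at that minimum, which leaves fewer pairs. Signs turned only among uncalled genes when 1 library was left out. Log2 fold changes then ranged from -0.259 to 0.388 for FAM13A-AS1, -0.0687 to 0.0410 for FGD5-AS1, -0.0182 to 0.0949 for OTUD6B-AS1, -0.119 to 0.153 for PAX8, -0.0467 to 0.105 for PAX8-AS1, -0.0719 to 0.00801 for PRKAR2A and -0.0468 to 0.0199 for VAC14. Of the settings for named genes, 883 kept direction and side of the threshold, called or not, 40 lost the call, 1 gained it and 13 turned sign. Other causes were not tested. The unknown depth limits all genes under a mean of 50.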
